A study of Homo sapiens with 24 samples.

Results

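Replication dependent histone genes are described here across 24 RNA sequencing libraries of 293T cells, a human embryonic kidney line. Members were the gene rows whose symbol follows the H1-1 to H1-5, H2AC, H2BC, H3C or H4C numbering, with pseudogenes left out, and 68 of 61853 rows qualified. They comprised 5 H1, 17 H2A, 18 H2B, 13 H3 and 15 H4 genes. Per the labels, all cells carried a hairpin RNA against DIS3 (DIS3-sh2) and a rescue with either wild-type DIS3 (WT) or the D146N form. DIS3 is a ribonuclease of the RNA exosome, and D146N replaces an aspartate of its endonuclease domain. Cytoplasmic RNA of each genotype came from fractions 3, 4, 7 and 8 of a sucrose gradient, which separates particles by size and density, and was depleted of ribosomal RNA. Each of the 8 groups held 3 replicates, described by the submitters as biological sets. The labels do not say which end of the gradient fraction 3 lies at or whether a rescue line is a clone or a pool.

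Replication dependent histone mRNAs supply the proteins that package newly made DNA, and they accumulate in S phase. H2A, H2B, H3 and H4 form the core of the nucleosome, and H1 binds the linker DNA between nucleosomes. These genes lie in clusters, have no introns as a rule, and yield mRNAs that end in a conserved stem-loop instead of a poly(A) tail. The stem-loop binding protein SLBP and the U7 snRNP make this end, and the exonuclease ERI1 and added uridines take part in its decay. Preparation by ribosomal RNA depletion does not select for a poly(A) tail, so such mRNAs can be counted.

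Library totals ran from 21150619 to 32989418 counts. DIS3 itself, whose endogenous and rescue transcripts the gene counts cannot separate, averaged 95.1 to 98.4 CPM (counts scaled by the library total to a common library size) in WT fractions 3 and 4 and 4.93 to 5.88 CPM in WT fractions 7 and 8. D146N had the opposite order, with 8.59 to 9.13 CPM in its fractions 3 and 4 and 97.6 to 101 CPM in its fractions 7 and 8. These levels do not check the knockdown, which all groups carry. The 10 most abundant rows took 52.0% to 52.1% of counts in WT fractions 3 and 4 and 69.4% to 72.0% in WT fractions 7 and 8, against 76.6% to 76.9% and 48.8% to 49.9% in D146N. Scaling factors by the trimmed mean of M-values (TMM) averaged 2.51 in WT fractions 3 and 4, and 0.365 to 0.426 in WT fractions 7 and 8. For D146N they were 0.366 and then 2.76 to 2.81. A TMM fold change therefore compares a gene with the typical gene. On library totals alone, the median of all genes moved from -0.18 to -2.83 in the WT contrast of fractions 7 and 8 with 3 and 4, and from 0.10 to 3.00 in the same D146N contrast (log2). WT fraction 8 replicate 3 stood apart, with a chi-square per gene of 143 and 147 against its replicates, whereas the other 22 replicate pairs gave 1.87 to 6.04. Of 15 markers of other cell types, 11 stayed under 2 CPM in every library and 2 were at 0. The hepatocyte gene ALB had the highest value among them, 142 CPM.

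To show how the families differ in the letters before their genes, 5 promoters are printed. Each line holds the 120 bases before the annotated start, from RefSeq (GRCh38.p14), 5′ to 3′ on the gene's strand. Capitals mark 4 motifs, each searched on both strands. These are the box TATAAA, the octamer ATTTGCAT and the element of H1 genes AAACACA. The last of them is the pentamer CCAAT, which reads ATTGG where it lies on the opposite strand. H1-2, H2AC19, H3C15 and H4C14 had the highest mean CPM of their families, and H2BC11 shows the octamer. No motif was found in the printed bases of H4C14, which says nothing of the factors that bind there. This choice was made after values were seen.
H1-2, chr6:26056471-26056590, minus strand: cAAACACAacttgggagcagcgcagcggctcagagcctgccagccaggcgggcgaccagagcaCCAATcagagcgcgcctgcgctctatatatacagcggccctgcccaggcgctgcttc
H2AC19, chr1:149850941-149851060, plus strand: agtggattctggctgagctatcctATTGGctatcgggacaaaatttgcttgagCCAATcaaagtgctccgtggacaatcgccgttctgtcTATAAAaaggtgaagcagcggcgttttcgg
H2BC11, chr6:27132796-27132915, minus strand: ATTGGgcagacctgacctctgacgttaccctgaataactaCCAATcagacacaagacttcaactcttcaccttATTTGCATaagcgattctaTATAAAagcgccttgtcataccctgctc
H3C15, chr1:149852488-149852607, plus strand: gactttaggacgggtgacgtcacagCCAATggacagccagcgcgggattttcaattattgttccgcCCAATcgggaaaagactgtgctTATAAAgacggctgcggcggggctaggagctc
H4C14, chr1:149832537-149832656, plus strand: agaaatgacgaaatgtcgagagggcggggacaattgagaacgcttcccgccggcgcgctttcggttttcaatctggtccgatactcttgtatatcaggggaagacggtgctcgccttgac

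Over the 250 bases before the start, 63 of the 68 genes had a sequence, and H2AC12, H3C11, H3C12, H4C1 and H4C3 had none. All 5 H1 promoters held AAACACA, an element named for H1 genes, while no promoter of the other families did, against 4.82% of 35116 promoters in the table. The octamer ATTTGCAT was in 11 of 16 H2A and 14 of 18 H2B promoters, in 1 of 11 H3 promoters and in no H1 or H4 promoter, against 1.63% of all. H2A and H2B genes often sit head to head, and 11 of the 16 H2A windows overlapped an H2B window, so those counts share sequence. CCAAT was in every H1, H2A, H2B and H3 promoter and in 3 of 13 H4 promoters, against 32.0% of all. TATAAA was in 3 of 5 H1, 12 of 16 H2A, 12 of 18 H2B, 8 of 11 H3 and 7 of 13 H4 promoters, against 10.7% of all.

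Most members were abundant. Their mean over 24 libraries was at least 10 CPM for 48 genes, from 1 to 10 CPM for 4 and under 1 CPM for 16. The fit took 58 members. The other 10 (H2AC1, H2BC1, H2BC3, H2BC10, H2BC14, H3C8, H4C6, H4C7, H4C9 and H4C13) averaged at most 0.156 CPM, and H4C6 and H4C7 were at 0 in every library. Relative to gene span, H4C14 had the highest mean level at 4300 CPM per kb, followed by H3C15 at 3222, H2AC19 at 2374, H3C2 at 1889 and H4C11 at 1755. Span was 386 to 797 bases for 60 members and longer for 8, among them H2BC21 and H2BC12, for which a level per span is not comparable. Only 33.6% of the members' nonzero values were whole within 0.005, against 73.3% over all rows. This comparison was not adjusted for abundance. Genes of a core histone family are close copies, so their reads can be split among copies, which was not tested here. The value of a single member is therefore less certain than the sum of its family.

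Summed over members, histone mRNA made up 2.29 ± 0.034% of library counts in WT fractions 3 and 4 (SD, n = 6) and 1.56 ± 0.12% in the later WT pair. Here and below, n = 6 pools the 3 replicates of both neighbouring fractions, so it counts libraries and not independent cultures. The D146N rescue had 0.842 ± 0.016% in its early pair and 3.33 ± 0.042% in its later pair. These shares also depend on the other RNAs of a library, so they are not amounts per cell. Between the genotypes, fewer cells with histone mRNA and less of it per cell cannot be told apart here. The 6 values of each pair of fractions did not overlap those of any other pair, from the lowest pair (0.813% to 0.861%, D146N fractions 3 and 4) to the highest (3.25% to 3.37%, D146N fractions 7 and 8). WT fraction 8 replicate 3 was the lowest WT library at 1.32%, and the other 5 libraries of its pair lay at 1.56% to 1.65%.

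The makeup of the histone pool differed between the fractions of each genotype, a readout that does not depend on library scaling. H4 was the largest family in WT fractions 3 and 4, at 31.8 ± 0.21% of histone counts, and made up 16.2 ± 0.24% in WT fractions 7 and 8. The D146N share of H4 was 19.9 ± 0.23% in fractions 3 and 4 and 31.5 ± 0.31% in fractions 7 and 8. H2A had the opposite order, with 21.6 ± 0.19% and then 31.1 ± 0.77% in WT, and 27.7 ± 0.19% and then 22.4 ± 0.25% in D146N. H2B went from 16.4 ± 0.23% to 22.04 ± 0.30% in WT and from 19.6 ± 0.25% to 15.8 ± 0.13% in D146N. For these 3 families the 6 libraries of one pair of fractions did not overlap the 6 of the other pair in either genotype.

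H3 and H1 departed from that order. The H3 share was 20.7 ± 0.24% and then 23.8 ± 1.2% in WT, without overlap, while in D146N it was 21.2 ± 0.21% and 20.9 ± 0.24%, with overlapping libraries. H1 made up 9.50 ± 0.063% in WT fractions 3 and 4. Of the WT libraries of fractions 7 and 8, 5 had an H1 share of 5.80% to 5.95%, and fraction 8 replicate 3 had 11.3%. The D146N share of H1 was 11.6 ± 0.14% in fractions 3 and 4 and 9.34 ± 0.070% in fractions 7 and 8. Mean shares of D146N fractions 7 and 8 differed from those of WT fractions 3 and 4 by less than 1 percentage point in all 5 families. D146N fractions 3 and 4 differed from WT fractions 7 and 8 most in H1, whose libraries lay at 11.5% to 11.8% against a WT median of 5.91%. These shares are described without a test.

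**Figure D1:**
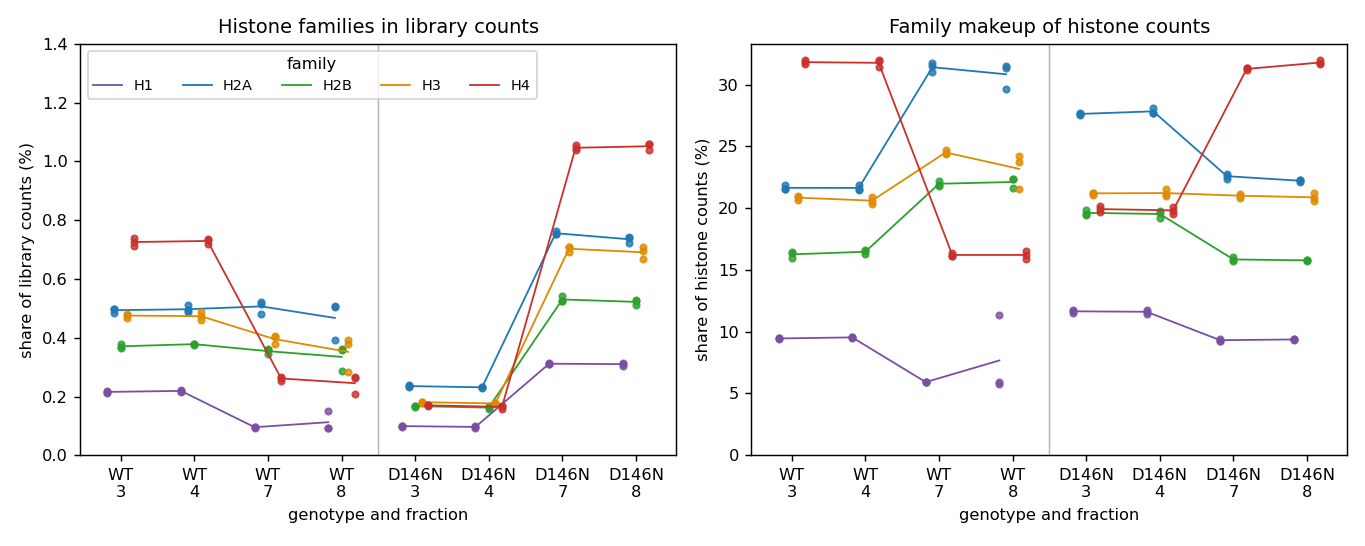
Share of library counts (left) and share of histone counts (right), in percent, of each histone family in the 24 libraries, by genotype and fraction. Points are libraries and lines join the group means within a genotype; H4 is the family whose share of histone counts separates the pairs of fractions most widely, at 31.8% and 16.2% in WT and 19.9% and 31.5% in D146N.

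Relative to the typical gene, histone mRNAs were higher in WT fractions 7 and 8 than in 3 and 4, and on library totals most of them were lower instead. With edgeR's quasi-likelihood test on the TMM scale, 53 of 58 members were called higher and 1 lower at an adjusted p under 0.05, against 34.6% and 39.3% of the 18907 genes tested. The median log2 fold change of the members was 2.23, that of all genes -0.18. On library totals 10 were called higher and 43 lower, against 7.66% and 83.6% of all genes. In D146N the same contrast called 48 members lower and 1 higher, against 30.3% and 29.9% of all genes, with a median of -0.95 and 0.10 for all genes. On library totals 56 D146N members were called higher and none lower, against 88.9% and 4.08% of all genes. The test of the difference between the 2 contrasts called 53 members lower and 2 higher in D146N, against 35.4% and 41.7% of all genes; on library totals the counts were 3 lower and 53 higher, against 6.41% and 88.1%.

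H2A and H2B genes, whose products pair as a dimer, had the largest median fold changes on the TMM scale and the smallest on library totals. All 16 tested H2A members and all 14 tested H2B members were called higher in WT fractions 7 and 8 and lower in D146N fractions 7 and 8 on the TMM scale, and 15 H2A and 11 H2B members averaged at least 10 CPM. Their medians were 2.52 and 2.46 in WT, and -1.18 and -1.16 in D146N. On library totals the medians were -0.18 for H2A and -0.25 for H2B in WT, with -1.43 to -0.81 in the other families, and 1.74 and 1.77 in D146N, with 1.94 to 2.64 in the others. On library totals, the D146N directions reversed for all 9 H2A and H2B genes named here, and in WT those of H2AC11, H2AC13 and H2BC12 did.

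H2AC20 (ENSG00000184260.6; chr1:149886918-149887411, RefSeq GRCh38.p14) had the largest shifts of the 3 most abundant H2A genes on the TMM scale. On library totals its D146N shift of 0.92 was the smallest of the 3, with 1.76 for H2AC19 and 1.73 for H2AC11. Its lowest, median and highest values were 556, 578 and 602 CPM in WT fractions 3 and 4, and 752, 1044 and 1106 CPM in WT fractions 7 and 8. In D146N they were 452, 474 and 484 CPM in fractions 3 and 4, and 825, 902 and 921 CPM in fractions 7 and 8. The groups did not overlap within either genotype, and in both genotypes fractions 7 and 8 were higher in CPM. On the TMM scale H2AC20 rose by 3.49 in WT (log2, SE 0.11, edgeR adjusted p = 1.34e-25) and fell by 2.01 in D146N (SE 0.10, adjusted p = 6.33e-19). Its share of H2A counts was 11.7 ± 0.21% and 20.5 ± 0.65% in WT, and 20.2 ± 0.33% and 11.9 ± 0.30% in D146N (SD, n = 6).

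The most abundant H2A gene, H2AC19, kept a nearly constant part of its family, between 24.8% and 26.3% of H2A counts in all 4 pairs of fractions. On the TMM scale, H2AC15 had the largest WT change among abundant H2A members, 3.58 (SE 0.10), and the largest D146N fall, 2.50 (SE 0.09; edgeR adjusted p = 4.12e-25 and 4.69e-21). On library totals it gave 0.88 and 0.43, the latter the smallest D146N rise of the 5 H2A genes named. H2AC13 had the smallest TMM change in WT, 1.91 (SE 0.09; edgeR adjusted p = 4.78e-20; -0.79 on library totals). Its share of H2A counts went the other way from that of H2AC20, with 10.1 ± 0.23% and 5.95 ± 0.13% in WT and 6.14 ± 0.25% and 9.69 ± 0.28% in D146N.

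H2BC21 and H2BC12 diverged in the same manner within H2B. H2BC21 (ENSG00000184678.11; chr1:149884459-149886682) had 559, 580 and 598 CPM as lowest, median and highest values in WT fractions 3 and 4, and 703, 805 and 815 CPM in WT fractions 7 and 8. In D146N it had 423, 453 and 460 CPM, and then 769, 803 and 838 CPM. Its groups did not overlap, and its share of H2B counts was 15.5 ± 0.31% and 22.8 ± 0.88% in WT, and 27.2 ± 0.28% and 15.3 ± 0.27% in D146N. H2BC12 (chr6:27138293-27146858) had 801, 821 and 840 CPM and then 357, 446 and 461 CPM in WT, and 237, 242 and 250 CPM and then 1038, 1056 and 1115 CPM in D146N. Its share of H2B counts was 21.9 ± 0.45% and 12.6 ± 0.24% in WT, and 14.8 ± 0.39% and 20.2 ± 0.28% in D146N. On the TMM scale the fitted change of H2BC21 was 3.14 in WT (SE 0.09) and -2.09 in D146N (SE 0.09), that of H2BC12 1.79 and -0.80 (both SE 0.09), all called by edgeR (adjusted p = 8.60e-27, 1.07e-21, 5.18e-19 and 1.22e-09). H2BC26 had the highest WT change of the abundant H2B genes, 3.31 (SE 0.09, adjusted p = 8.77e-27).

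**Figure D2:**
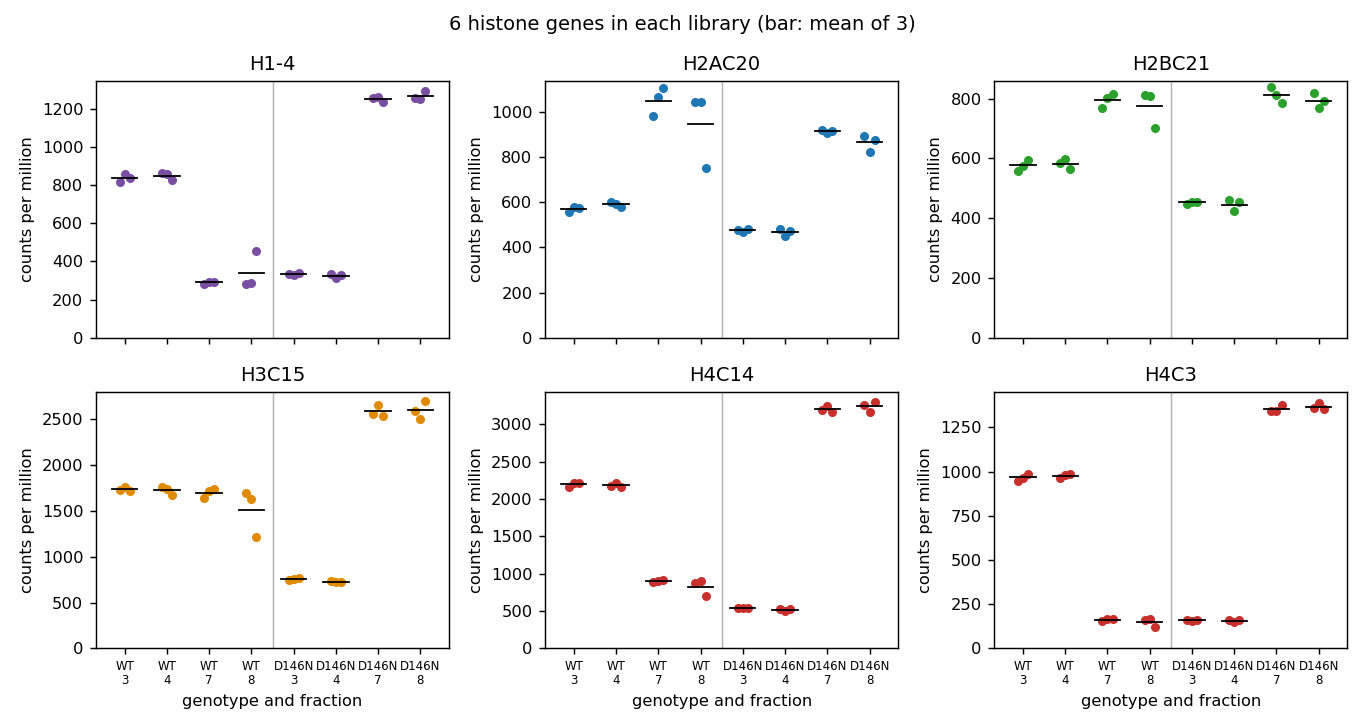
Level in CPM (linear axis from 0) of 6 histone genes in each library, by genotype and fraction. Points are the 3 replicates and bars their means; in WT, H2AC20 and H2BC21 are higher in fractions 7 and 8 whereas H4C14 and H4C3 are lower there, H4C3 at 122 to 166 CPM against 949 to 988 in fractions 3 and 4.

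H3 genes lay between the families. Of 12 tested members, 10 were called higher and 1 lower in WT fractions 7 and 8 on the TMM scale (median 1.89), and 8 lower and 1 higher in D146N (median -0.67). Both directions reversed on library totals for H3C15 and H3C2. H3C15 (ENSG00000203852.4; chr1:149852608-149853125) had 1675, 1733 and 1767 CPM as lowest, median and highest values in WT fractions 3 and 4, and 1216, 1673 and 1737 CPM in WT fractions 7 and 8, which overlapped. In D146N it had 722, 744 and 769 CPM and then 2502, 2578 and 2700 CPM. Its fitted change was 2.60 in WT (SE 0.10) and -1.13 in D146N (SE 0.10; edgeR adjusted p = 2.25e-22 and 2.86e-12). H3C13 had the largest WT change of the abundant H3 genes on the TMM scale, 3.08 (SE 0.11, adjusted p = 6.01e-21), and made up 7.99 ± 0.31% and then 13.1 ± 0.46% of H3 counts in WT, and 12.4 ± 0.11% and then 7.57 ± 0.13% in D146N. H3C7 had the smallest, 1.60 (SE 0.10, adjusted p = 2.39e-13), and was not called in D146N (-0.22, SE 0.10, adjusted p = 0.064). It was called lower in D146N without WT fraction 8 replicate 3 (-0.20, adjusted p = 6.58e-06) and with only the groups of the contrast in the fit (-0.24, adjusted p = 1.40e-06).

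Among members of H3 and H1 with trace levels, 1 was called against its family on the TMM scale. H3C3, which stayed at or under 1.68 CPM in every library, was called lower in WT (-1.62, SE 0.59, edgeR adjusted p = 0.014) and higher in D146N (1.995, SE 0.79, adjusted p = 0.029). The D146N call of H3C3 was lost without any of D146N fraction 3 replicates 2 and 3 or fraction 4 replicates 2 and 3 (1.74 to 1.93, adjusted p = 0.052 to 0.074). H1-1, H1-5 and H3C11, also under 2 CPM throughout, were not called in either genotype on the TMM scale (SEs of 0.57 to 1.19, log2). On library totals these genes were called lower in WT (-3.71 to -3.15) and higher in D146N (2.9 to 4.2). With no filter on low counts, H1-5 was called lower in WT (-1.29) and higher in D146N (1.51). H1-5 was called lower in WT in 5 leave-one-out fits, among them that without WT fraction 8 replicate 3 (-1.65, adjusted p = 0.017), and higher in D146N in 5 such fits. H3C4, at 0.636 CPM on average, was called higher in WT (1.46, SE 0.31, adjusted p = 9.66e-05) and not called in D146N (-0.71, SE 0.34, adjusted p = 0.073). It was called lower in D146N with DESeq2 (-0.72, adjusted p = 0.049) and without D146N fraction 4 replicate 3 (-0.87, adjusted p = 0.034).

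H4 genes had the smallest family median in D146N on the TMM scale, while in WT that of H1 was lower (1.24). On library totals the H4 medians were -1.40 in WT and 2.64 in D146N. Of 11 tested members 10 were called higher in WT (median 1.304) and 7 lower in D146N (median -0.28) on the TMM scale, and all H4 genes named here had the opposite sign on library totals except H4C3 in D146N. H4C14 (ENSG00000270882.3; chr1:149832657-149833052), the most abundant histone gene of the set, had 2159, 2196 and 2222 CPM as lowest, median and highest values in WT fractions 3 and 4, and 697, 899 and 918 CPM in WT fractions 7 and 8. In D146N it had 503, 533 and 541 CPM and then 3170, 3222 and 3295 CPM. The groups did not overlap, and the order of the fractions was reversed between the genotypes. H4C14 rose by 1.37 in WT (SE 0.09, edgeR adjusted p = 1.60e-15) and fell by 0.32 in D146N (SE 0.09, adjusted p = 0.0029) on the TMM scale. The D146N call was lost without any one of the 6 libraries of WT fractions 3 and 4 or of the 6 of D146N fractions 7 and 8 (-0.16 to -0.17, adjusted p = 0.071 to 0.12), and with no filter on low counts (-0.20, adjusted p = 0.12). WT libraries are not part of this contrast and reach it only through the scaling and spread shared by the fit. Under the same omissions of a library, H4C3 also moved upward in D146N, from 0.17 to 0.32 or 0.33.

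H4C3 (ENSG00000197061.5; chr6:26103933-26104337) differed from the other abundant members. It had 949, 973 and 988 CPM in WT fractions 3 and 4 and 122, 163 and 166 CPM in WT fractions 7 and 8 (lowest, median, highest), and 150, 161 and 164 CPM and then 1341, 1358 and 1387 CPM in D146N. Its fitted change was 0.07 in WT (SE 0.09, edgeR adjusted p = 0.51) and 0.17 in D146N (SE 0.09, adjusted p = 0.10). It was the only one of 48 members averaging at least 10 CPM that was not called in WT. Without WT fraction 8 replicate 3 the 2 values were 0.17 (adjusted p = 1.92e-09) and 0.19 (adjusted p = 6.14e-11), and leaving out any library of WT fractions 3 and 4 or of D146N fractions 7 and 8 gave 0.32 or 0.33 in D146N, called each time. It was also called in D146N without WT fraction 8 replicate 2 (0.19), with no filter on low counts (0.29) and with only the groups of the contrast in the fit (0.15). H4C3 took 13.4 ± 0.18% and then 6.15 ± 0.16% of H4 counts in WT, and 9.48 ± 0.18% and then 13.0 ± 0.25% in D146N (SD, n = 6). H4C4 had the largest WT change among abundant H4 genes on the TMM scale, 1.81 (SE 0.09, adjusted p = 2.36e-19), and took 7.24 ± 0.090% and then 11.2 ± 0.11% of H4 counts. H4C5, H4C8 and H4C11 were called higher in WT (0.70 to 1.09) and not called in D146N (-0.15 to -0.19, adjusted p = 0.053 to 0.14), where they were called lower without WT fraction 8 replicate 3 (-0.17 to -0.13) and with only the groups of the contrast in the fit (-0.21 to -0.17).

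H1 genes had 3 abundant members, H1-2, H1-4 and H1-3. H1-4 (ENSG00000168298.7; chr6:26156329-26157115) had 820, 849 and 863 CPM as lowest, median and highest values in WT fractions 3 and 4 and 283, 291 and 453 CPM in WT fractions 7 and 8. Fraction 8 replicate 3 gave the 453 CPM, and the other 5 libraries lay at 283 to 294 CPM. In D146N it had 314, 331 and 339 CPM and then 1236, 1258 and 1298 CPM. All 3 genes were called higher in WT and lower in D146N on the TMM scale and reversed in both on library totals: H1-3 2.02 and -1.63, H1-2 1.76 and -1.40, and H1-4 1.24 and -0.99 (SEs 0.06 to 0.07, edgeR adjusted p from 5.12e-24 to 1.35e-16). H1-4 had the smallest change of the 3 on the TMM scale and the largest on library totals (-1.43 in WT and 1.94 in D146N). Its share of H1 counts was 38.9 ± 0.67% and 30.4 ± 0.18% in WT and 33.7 ± 0.39% and 40.6 ± 0.73% in D146N.

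The order of the members was nearly mirrored between the genotypes, whose libraries are separate. Across members, Pearson's r between the WT and D146N log2 fold changes was -0.904 for 58 genes and -0.874 for the 48 genes of at least 10 CPM. This r is a description: members of a family can share reads, and each point shares its libraries with every other. The same r over all tested genes was not computed, so the mirrored order is not shown to be particular to histone genes.

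**Figure D3:**
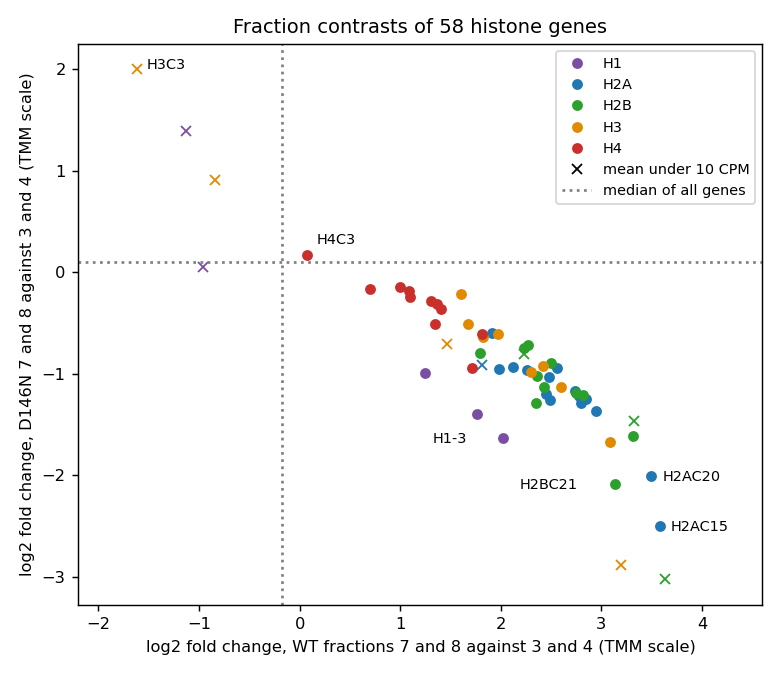
Log2 fold changes (TMM scale) of 58 histone genes in fractions 7 and 8 against 3 and 4, WT on the horizontal and D146N on the vertical axis, coloured by family, with crosses for genes under 10 CPM and dotted lines at the median of all genes (-0.18 and 0.10). H2A and H2B genes lie at the lower right and H4 genes nearest the dotted lines, with H4C3 closest; on library totals most WT values and nearly all D146N values change sign.

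Within a fraction, D146N and WT differed at almost every member, but a difference of genotype and a difference in what a fraction number holds cannot be told apart there. On the TMM scale 52 of 58 members were called higher and 0 lower in D146N in fraction 3 (25.8% and 23.9% of all genes), and 52 higher and 2 lower in fraction 4 (25.7% and 22.8%). In fraction 7, 0 were called higher and 52 lower (32.4% and 31.1%), and in fraction 8, 1 higher and 52 lower (32.5% and 32.6%). On library totals the direction was reversed in each fraction, with 54 lower in fraction 3, 54 lower in fraction 4, 50 higher in fraction 7 and 52 higher in fraction 8, where all genes were called lower at 84.7% and 84.3% and higher at 83.6% and 80.9%. H2A had the largest family median in fractions 3, 4 and 7 (1.62, 1.56 and -2.26) and H2B in fraction 8 (-1.97). H4 had the smallest in fractions 3, 4 and 8 (0.62, 0.54 and -0.74), and H1 in fraction 7 (-0.84, with H4 at -1.01). All of these medians are on the TMM scale.

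Fractions that resembled each other between the genotypes in earlier results of these data were also compared. On library totals the median of all genes moved from 0.01 to 0.16 in the first of these comparisons and from 0.01 to -0.09 in the second. In D146N fractions 7 and 8 against WT fractions 3 and 4, 44 of 58 members were called higher and 0 lower by edgeR, against 6.90% and 10.4% of all genes. The median of the members was 0.38 and that of all genes 0.01. Medians by family were 0.31 for H1, 0.43 for H2A, 0.35 for H2B, 0.40 for H3 and 0.37 for H4, with 3 of 5, 14 of 16, 9 of 14, 8 of 12 and 10 of 11 members called higher. The families were not tested against each other. H2BC26 had the largest value among members of at least 10 CPM, 0.53 (SE 0.09, adjusted p = 2.19e-05), and H2AC15 the smallest, 0.17 (SE 0.09, adjusted p = 0.20). Of the 48 abundant members 44 were called. On library totals 50 members were called higher and 0 lower, against 16.9% and 5.29% of all genes. H2BC12 was not called either (0.23, SE 0.09, adjusted p = 0.077). Both H2AC15 and H2BC12 were called higher on library totals (0.32 and 0.37), with no filter on low counts (0.18 and 0.23), with only the groups of the contrast in the fit (0.17 and 0.23) and without WT fraction 8 replicate 3 (0.17 and 0.23), and H2BC12 also without other single libraries and with DESeq2.

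In D146N fractions 3 and 4 against WT fractions 7 and 8, 46 members were called lower and 1 higher, against 12.1% and 17.1% of all genes. Here the families differed. The medians were -0.97 for H2A, -1.15 for H2B, -0.90 for H3, -0.50 for H4 and -0.03 for H1, with all 16 H2A, 13 of 14 H2B, 8 of 12 H3, 9 of 11 H4 and 0 of 5 H1 members called lower. H2AC19 fell by 1.07 (SE 0.09, edgeR adjusted p = 3.70e-11), H2BC26 by 1.17 (SE 0.09, adjusted p = 8.40e-13), H3C15 by 1.04 (SE 0.10, adjusted p = 2.34e-10) and H4C14 by 0.64 (SE 0.09, adjusted p = 1.13e-06). H4C3 gave 0.10 (SE 0.09, adjusted p = 0.47) and H4C8 -0.16 (SE 0.09, adjusted p = 0.21). H4C8 was called lower without WT fraction 8 replicate 3 (-0.27, adjusted p = 1.60e-07) and on library totals (-0.23, adjusted p = 0.0028). H1-4 was called higher at 0.18 (SE 0.06, adjusted p = 0.021), while H1-2 and H1-3 gave -0.03 and -0.08 and were not called. H1-3 was called lower without WT fraction 8 replicate 3 (-0.16, adjusted p = 0.00032) and on library totals (-0.17, adjusted p = 0.0098), and H1-2 was called lower with DESeq2 (-0.11, adjusted p = 0.017). The H1-4 call was lost with the size factors of DESeq2 (0.11, adjusted p = 0.19), on library totals (0.07, adjusted p = 0.54) and with only the 4 groups of the contrast in the fit (0.16, adjusted p = 0.18). On library totals 50 members were called lower and 0 higher, against 15% and 12% of all genes, and with DESeq2's size factors 48 lower and 0 higher, against 15.7% and 13.9%. The H1 median was 0.16 without WT fraction 8 replicate 3 and -0.15 on library totals, where the medians of all genes were 0.04 and -0.09. The difference between families was not tested.

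Over the mean of the 4 fractions, D146N had 34 members called lower and 3 higher than WT, against 9.66% and 13.5% of all genes. This mean does not depend on the order of the 4 fraction numbers. It can depend on whether the 4 fractions hold the same particles in both genotypes, which was not tested. The members' median was -0.26 and that of all genes 0.01. H2A contributed 14 of 16 called lower (median -0.28), H2B 12 of 14 (-0.32), H3 6 of 12 (-0.23) and H4 2 of 11 (-0.08). Without WT fraction 8 replicate 3, 7 of 11 H4 members were called lower (median -0.13), and 15 H2A, 12 H2B and 8 H3 members, against 11.5% of all genes. H1 had none lower and 2 higher (median 0.15), namely H1-4 at 0.31 (SE 0.04, edgeR adjusted p = 1.24e-06) and H1-2 at 0.15 (SE 0.04, adjusted p = 0.014), and the third gene called higher was H4C3 at 0.22 (SE 0.06, adjusted p = 0.013). The H1-2 call was lost on library totals (0.16, adjusted p = 0.068) and with DESeq2's size factors (0.12, adjusted p = 0.052). H1-3 gave 0.11 (SE 0.05, adjusted p = 0.094), and it was called higher on library totals (0.14), with no filter (0.14) and without WT fraction 8 replicate 3 (0.08). H2AC20 fell by 0.27 (SE 0.07, adjusted p = 0.0036), H2BC21 by 0.20 (SE 0.06, adjusted p = 0.0098), H3C13 by 0.37 (SE 0.07, adjusted p = 0.00035), whereas H4C14 gave -0.11 (SE 0.06, adjusted p = 0.21). The H2AC20 call was lost with no filter on low counts (-0.24, adjusted p = 0.063). Without WT fraction 8 replicate 3, H4C14 was called lower (-0.17, adjusted p = 4.73e-16), as were H4C4 (-0.20), H4C11 (-0.13) and H4C5 (-0.09). The 3 comparisons of this kind share libraries with one another, so they are not separate evidence.

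WT fraction 8 replicate 3 took part in these results. Without it 59 members were tested, and 54 were called higher in the WT contrast, 52 lower in the D146N contrast, 48 higher in D146N fractions 7 and 8 against WT fractions 3 and 4, 50 lower in D146N fractions 3 and 4 against WT fractions 7 and 8, and 42 lower over the mean of the 4 fractions. In that fit the same calls covered 33%, 30.1%, 11.3%, 12.2% and 11.5% of all genes, in that order. None of these 5 counts of members changed by more than 1.5 times, whereas the count of H4 genes called lower over the 4-fraction mean did.

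**Figure D4:**
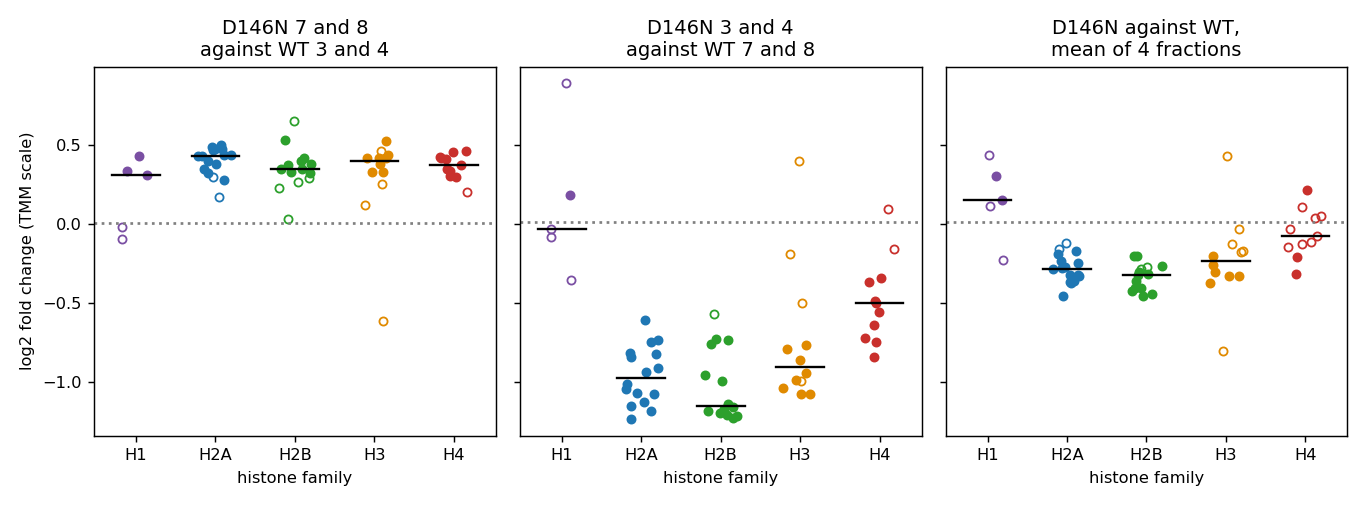
Log2 fold changes (TMM scale) of 58 histone genes by family in D146N fractions 7 and 8 against WT fractions 3 and 4, D146N fractions 3 and 4 against WT fractions 7 and 8, and D146N against WT over the mean of the 4 fractions. Filled points are called by edgeR at an adjusted p under 0.05 and open points are not. Bars are family medians and the dotted line is the median of all genes. H1 stays near 0 in the middle panel (median -0.03, and 0.16 without WT fraction 8 replicate 3) while H2A, H2B and H3 lie near -1.

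By position, 54 members lay on chromosome 6 between 25726063 and 27893891, 11 on chromosome 1 between 149782689 and 149887965, 2 on chromosome 1 between 228457364 and 228458558, and 1 on chromosome 12. Genes of the larger chromosome 1 cluster had higher WT medians than those on chromosome 6 for H2A (2.76 with 4 genes, 2.45 with 11), H2B (2.98 with 2, 2.36 with 11) and H3 (2.60 with 3, 1.68 with 9). For H4 the values were 1.23 with 2 genes and 1.21 with 8. This grouping was chosen after values were seen and was not tested, and the TMM scale applies to all of it.

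Replication independent histones, which are expressed outside S phase and have polyadenylated mRNAs as a rule, gave 13 tested genes of 23 listed. On the TMM scale 9 were called higher and 4 lower in the WT contrast (median 1.45; 34.6% and 39.3% of all genes), and 4 higher and 8 lower in D146N (median -0.57; 29.9% and 30.3%). On library totals 12 were lower in WT and 13 higher in D146N, against 83.6% and 88.9% of all genes. H2AZ1, the H2A.Z gene, rose by 2.02 in WT (SE 0.06, edgeR adjusted p = 4.84e-27) and fell by 1.29 in D146N (SE 0.06, adjusted p = 4.74e-21), and on library totals it gave -0.65 and 1.64. Over the mean of the 4 fractions 5 of the 13 were called higher in D146N and 2 lower (13.5% and 9.66% of all genes), and H1-10 was higher by 0.48 (SE 0.06, edgeR adjusted p = 4.74e-08).

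Genes that make, process or degrade histone mRNA were called in both directions on the TMM scale. Of 45 tested among 49 listed, 17 were called higher and 25 lower in the WT contrast (34.6% and 39.3% of all genes), 17 higher and 18 lower in the D146N contrast (29.9% and 30.3%), and 10 higher and 4 lower over the mean of the 4 fractions (13.5% and 9.66%). On library totals 35 were lower in the WT contrast and 43 higher in the D146N contrast, where 83.6% and 88.9% of all genes were. SLBP fell by 0.25 in WT (SE 0.10, edgeR adjusted p = 0.024) and gave 0.02 in D146N (SE 0.10, adjusted p = 0.89). LSM10, a subunit of the U7 snRNP, rose by 3.88 in WT (SE 0.09, adjusted p = 4.42e-30) and fell by 3.34 in D146N (SE 0.08, adjusted p = 3.06e-28), with 1.23 and -0.41 on library totals. NPAT, the activator of histone gene transcription, fell by 0.29 in WT (SE 0.10, adjusted p = 0.0080) and by 0.25 in D146N (SE 0.10, adjusted p = 0.031), the latter 2.67 on library totals. ERI1 was called higher over the mean of the 4 fractions (0.25, SE 0.09, adjusted p = 0.046), and SLBP gave -0.07 (SE 0.07, adjusted p = 0.55).

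Other genes expressed in S phase were called mostly in the direction opposite to the histone genes on the TMM scale. Of 25 tested, 24 were called lower and 0 higher in the WT contrast (median -0.87; 39.3% and 34.6% of all genes), and 21 higher and 0 lower in D146N (median 0.55; 29.9% and 30.3%). On library totals all 25 were lower in WT and all 25 higher in D146N, against 83.6% and 88.9% of all genes. RRM2, a subunit of ribonucleotide reductase, fell by 0.36 in WT (SE 0.07, edgeR adjusted p = 2.14e-05), and MCM2, a subunit of the replicative helicase, fell by 1.351 (SE 0.07, adjusted p = 2.06e-18). In D146N fractions 3 and 4 against WT fractions 7 and 8, 18 were called higher and 0 lower (17.1% and 12.1% of all genes), and in D146N fractions 7 and 8 against WT fractions 3 and 4, 2 higher and 5 lower (6.90% and 10.4%). Over the mean of the 4 fractions 16 were called higher and 0 lower (median 0.19; 13.5% and 9.66% of all genes), and 17 and 0 on library totals. In gradient fractions, an altered amount of an mRNA in the cell and an altered place in the gradient cannot be told apart.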

How the data were processed

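The authors deposited expected counts per gene for 24 libraries, with parts of reads, without normalization. The submitters' processing notes name featureCounts 1.5.1, HISAT2 2.1.0, Bowtie2 2.3.5 and the build hg38. How shared reads were divided is not given in the sources used here. Symbols matched 99.9% of rows. Groups followed the titles. The design assumed whole counts, so values were rounded. Tests were edgeR 4.0.16 quasi-likelihood (R 4.3.3, TMM, filterByExpr, robust, 8 group means), with Benjamini-Hochberg adjustment over 18907 genes and calls at an adjusted p under 0.05; the coefficient of biological variation was 13.8%. CPM used library totals. On simulated data for the WT contrast (17470 genes) the fit recovered 76.1% of genes changed 1.5-fold and 98.5% of those changed 2-fold. Of the calls, 5.21% were false. In the simulation few genes changed, all genes had the same spread and no library stood apart. These rates may therefore not hold for the real libraries. Named genes were, per family, the 3 most abundant, the largest and smallest WT change among genes of at least 10 CPM, and those not called, called against their family or not in the fit. Members, lists and contrasts were chosen with earlier results of these data known. Alternatives were library totals, the size factors of DESeq2 1.42.0, DESeq2 itself, no filter, unrounded values, fewer groups, a replicate block and leaving out each library. A gene of a comparison list is not reported here.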

Additional observations from a re-analysis of the deposited data

Results flagged for a closer look

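The contrast of fractions 7 and 8 with 3 and 4 differed between the genotypes for most histone genes: the interaction test called 53 of 58 members lower in D146N than in WT and 2 higher (edgeR, adjusted p under 0.05), against 35.4% and 41.7% of all genes tested. On library totals the split was 3 lower and 53 higher, against 6.41% and 88.1% of all genes. The same numbers of fraction may not hold the same particles in the 2 genotypes, and this was not tested.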

How the results depend on the processing

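Directions within a genotype and within a fraction depended on the scaling. Those of the 2 comparisons between differently numbered fractions and of the 4-fraction mean did not. On library totals, members called higher and lower numbered 10 and 43 in the WT contrast of fractions 7 and 8 with 3 and 4 (median -0.47), 56 and 0 in the D146N contrast (median 1.98), and 53 and 3 for their difference (median 2.5). Of all genes, 7.66% and 83.6%, 88.9% and 4.08%, and 88.1% and 6.41% were called so. D146N against WT gave 0 and 54 in fraction 3 (median -1.44), 0 and 54 in fraction 4 (median -1.48), 50 and 3 in fraction 7 (median 0.96), and 52 and 2 in fraction 8 (median 1.07). The shares of all genes were 3.91% and 84.7%, 3.78% and 84.3%, 83.6% and 5.41%, and 80.9% and 6.08%. The WT log2 fold changes that reversed on library totals were H1-2 -0.90, H1-4 -1.43, H1-3 -0.67, H2AC11 -0.26, H2AC13 -0.79, H2BC12 -0.92, H3C15 -0.11, H3C2 -0.74, H3C7 -1.10, H3C4 -1.19, H4C14 -1.34, H4C11 -1.71, H4C3 -2.64, H4C4 -0.90, H4C5 -1.61 and H4C8 -2.0. In D146N they were H1-2 1.53, H1-4 1.94, H1-3 1.3, H2AC19 1.76, H2AC20 0.92, H2AC11 1.73, H2AC15 0.43, H2AC13 2.33, H2BC21 0.84, H2BC12 2.13, H2BC5 1.74, H2BC26 1.31, H3C15 1.80, H3C2 2.32, H3C13 1.25, H3C7 2.71, H3C4 2.19, H4C14 2.61, H4C11 2.78, H4C4 2.32, H4C5 2.74 and H4C8 2.76. With TMM factors the log2 ratio of the family sums reversed instead: in WT to 1.6 for H1, 2.65 for H2A, 2.56 for H2B, 2.33 for H3, 1.16 for H4 and 2.13 for all, and in D146N to -1.26, -1.25, -1.25, -0.96, -0.28 and -0.94. The median of all genes moved with the scaling as well, from -0.18 to -2.83 in WT and from 0.1 to 3 in D146N on library totals. Why the scaling factors differed between fractions was not tested.

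Small counts moved under other settings. Members called higher in D146N fractions 3 and 4 against WT fractions 7 and 8 numbered 0 on library totals, with DESeq2's size factors and with only the groups of the contrast in the fit. The last setting also gave 3 called higher in the D146N contrast and 0 in fraction 8. With no filter, 2 were called lower in WT, 3 higher in D146N and 5 higher over the 4-fraction mean. Same-numbered replicates did not deviate together (median correlation 0.001 within a genotype and -0.001 between genotypes, none over 0.1), and a replicate block moved 1 count by more than 1.5 times, members called lower in D146N in fraction 4, to 1. Under the block H3C7 was called lower in the D146N contrast (-0.22, edgeR adjusted p = 0.041). DESeq2 and unrounded values moved no count by more than 1.5 times.

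Leaving out 1 library at a time gave 53 to 54 members called higher and 1 to 2 lower in WT, and 0 to 3 higher and 45 to 52 lower in D146N. For the difference the ranges were 2 to 3 higher and 53 to 53 lower. D146N against WT gave 50 to 53 higher and 0 to 1 lower in fraction 3, 51 to 53 and 0 to 2 in fraction 4, 0 to 1 and 51 to 52 in fraction 7, and 1 to 1 and 52 to 53 in fraction 8. D146N fractions 7 and 8 against WT fractions 3 and 4 gave 44 to 48 and 0 to 0, D146N fractions 3 and 4 against WT fractions 7 and 8 gave 1 to 1 and 45 to 50, and the 4-fraction mean gave 3 to 4 and 32 to 42. Log2 ratios of the sums on library totals ran in WT from -1.2 to -1.03 for H1, -0.06 to 0.03 for H2A, -0.15 to -0.07 for H2B, -0.4 to -0.28 for H3, -1.56 to -1.47 for H4 and -0.58 to -0.51 for all. The H2A ratio was 0.03 without WT fraction 8 replicate 3. In D146N they ran from 1.66 to 1.68, 1.67 to 1.68, 1.66 to 1.69, 1.95 to 1.98, 2.64 to 2.66 and 1.97 to 1.99. Reads that can be shared among gene copies limit the values of single genes.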
